A study of Mus musculus with 32 samples.

Results

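The genes described here are 10 transcription factors of the B cell lineage: Pax5, Ebf1, Pou2af1, Spib, Bach2, Bcl6, Irf4, Irf8, Prdm1 and Xbp1. Each was taken as the probe set that carries its symbol alone, and all 10 had exactly 1 such probe set among the 19938 genes measured. The arrays came from a BALB/c mouse model of lymphoma of the brain built with BAL17, a B cell lymphoma line, and BAL17VII, a line derived from BAL17. There were 6 arrays of cultured BAL17 cells and 6 of cultured BAL17VII cells. Whole brains of wild-type BALB/c mice made up the other 20 arrays. They comprised 5 brains at day 21 after BAL17 implantation, 5 at day 28 after BAL17 implantation, 5 at day 21 after BAL17VII implantation and 5 at day 28 after an injection of PBS, the vehicle control. Each implanted brain had received 500000 cells. No day 21 PBS group and no day 28 BAL17VII group are part of the samples used here, so the day 21 brains were set against PBS brains taken at day 28. The extraction entry of the labels names frozen tissue for the cultured lines too, and the labels number lines and brains in separate series.

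B cells are built and kept by a small network of transcription factors. Ebf1 and Pax5 set and hold B cell identity, with Pax5 switching on B cell genes such as Cd79a and silencing those of other lineages. Pou2af1, also called OCA-B or OBF-1, is a coactivator that works with octamer-binding factors on immunoglobulin promoters, and Spib is an ETS-family factor of mature B cells. Bach2 and Bcl6 are repressors that hold activated and germinal centre B cells back from becoming plasma cells. Irf4 and Irf8 are interferon regulatory factors that bind composite sites beside ETS factors, and rising Irf4 favours plasma cell fate. Prdm1, which encodes Blimp-1, and Xbp1, which drives the secretory machinery, carry out the plasma cell programme. Several of these genes are also used outside B cells: Bcl6 and Xbp1 in many tissues, Irf8 in microglia and macrophages, and Ebf1 in vascular mural cells and some neurons.

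Values are log2 intensities, and differences are log2 differences ± SE from limma with adjusted p over all genes. Arrays of a group correlated at 0.979 to 0.994 over all genes, and the median log2 value of an array lay between 6.54 and 6.77. Tissue labels matched their markers: the mean of 5 neuronal genes was 10.65 to 11.19 in brains against 5.75 to 6.23 in cells, and the mean of 7 measured B cell markers was 8.35 to 8.80 in cells against 5.64 to 5.98 in PBS brains. A BAL17VII brain, replicate 1 of day 21, stood apart, with a B cell marker mean of 5.78 against 6.80 to 7.38 in the other 4 of its group, and 8 of the 10 factors lay within the PBS range in it. A BAL17 brain, replicate 3 of day 21, had the highest value of its group for 5 of the 10 factors, and replicate 5 for 4. BAL17VII brain replicate 2 of day 21 and BAL17 brain replicate 5 of day 28 were also highest of their groups for 5. BAL17VII brain replicate 1 and BAL17 brain replicate 3 of day 21 were each left out in turn. Where this changed the call of a factor or moved its called value by over 1.5 times, both values are given. Separate cultures are not named for the 6 arrays of each line, so p-values measure only the spread between these arrays.

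RefSeq promoter windows of assembly GRCm38.p6, 250 bases before to 50 after an annotated start, were found for all 10 genes, 13 windows in all. They are printed for the 4 genes on which the results below turn most: Pou2af1, with the largest rise in implanted brains, Spib and Bach2, which were lower in BAL17VII, and Bcl6, which was higher in cultured BAL17VII. Capitals mark a match to a searched motif, and each window runs 5′ to 3′ on the strand of the gene.

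Pou2af1, chr9:51213440-51213739, plus strand: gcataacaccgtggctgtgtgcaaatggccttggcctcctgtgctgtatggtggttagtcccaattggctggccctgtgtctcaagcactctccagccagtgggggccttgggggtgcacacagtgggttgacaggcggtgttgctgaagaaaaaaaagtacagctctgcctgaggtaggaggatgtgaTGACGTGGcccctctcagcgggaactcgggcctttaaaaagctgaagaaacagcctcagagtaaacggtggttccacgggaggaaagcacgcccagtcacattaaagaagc

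Spib, chr7:44532022-44532321, minus strand: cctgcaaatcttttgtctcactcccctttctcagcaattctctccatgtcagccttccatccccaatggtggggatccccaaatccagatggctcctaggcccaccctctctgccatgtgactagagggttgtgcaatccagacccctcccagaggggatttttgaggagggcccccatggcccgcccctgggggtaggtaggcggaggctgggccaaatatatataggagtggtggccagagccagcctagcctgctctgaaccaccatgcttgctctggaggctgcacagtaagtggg

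Bach2, chr4:32417185-32417484, plus strand: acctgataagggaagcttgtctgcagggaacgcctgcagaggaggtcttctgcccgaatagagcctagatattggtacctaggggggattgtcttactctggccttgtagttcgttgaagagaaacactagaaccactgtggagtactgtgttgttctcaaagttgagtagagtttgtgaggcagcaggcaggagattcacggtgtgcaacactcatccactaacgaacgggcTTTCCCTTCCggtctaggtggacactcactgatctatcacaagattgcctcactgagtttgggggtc

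Bcl6, chr16:23981234-23981533, minus strand, the 1 of its 2 windows that held a match: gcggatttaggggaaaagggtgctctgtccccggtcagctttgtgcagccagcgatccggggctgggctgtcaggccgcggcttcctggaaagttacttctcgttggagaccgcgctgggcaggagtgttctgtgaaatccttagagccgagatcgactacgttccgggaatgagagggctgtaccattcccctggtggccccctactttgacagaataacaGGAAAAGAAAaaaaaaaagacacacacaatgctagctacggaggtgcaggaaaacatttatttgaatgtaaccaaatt

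Both strands were searched for 7 motifs. The ETS and interferon regulatory factor composite, GGAA and GAAA with 2 free bases between them, was found in the Bach2 window, on its minus strand at position -17 from the start, and in the Bcl6 window at position -28. It was present in 2.72% of all 32851 windows. The unfolded protein response element core TGACGTGG, a site type bound by Xbp1, was found in the Pou2af1 window at position -61 and in 0.676% of all windows. The interferon response core, GAAA and GAAA with 2 free bases between, present in 3.44% of all windows, was found for Ebf1, and the Bcl6 site TTCCNAGAA, present in 2.24%, for Irf8. The octamer ATGCAAAT (1.74% of all windows), the Ebf1 palindrome of TCCC and GGGA with 2 free bases between (0.904%) and the Maf element bound by Bach2, TGCTGA and TCA with 1 free base between (0.423%), were in none of the 13 windows. These are matches of letters, not measured binding. The composite and the interferon response core differ in 1 letter, and neither contains the other.

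The level of each factor across the 6 groups came first. Pax5, Pou2af1, Spib, Irf4, Irf8 and Bach2 had the same broad order, with both cultured lines highest, BAL17 brains next, BAL17VII brains below them and PBS brains lowest. Ebf1 was high in the lines and close among the brain groups, Bcl6 was as high in PBS brains as anywhere, and Prdm1 and Xbp1 had narrow ranges in which lines and brains overlapped. Cells and brains were not tested against each other, because it is not stated whether they were normalized together. Quantile normalization over all 32 arrays left the order unchanged for 8 of the 10 factors, and exchanged neighbouring groups for Ebf1 and Bcl6.

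**Figure D1:**
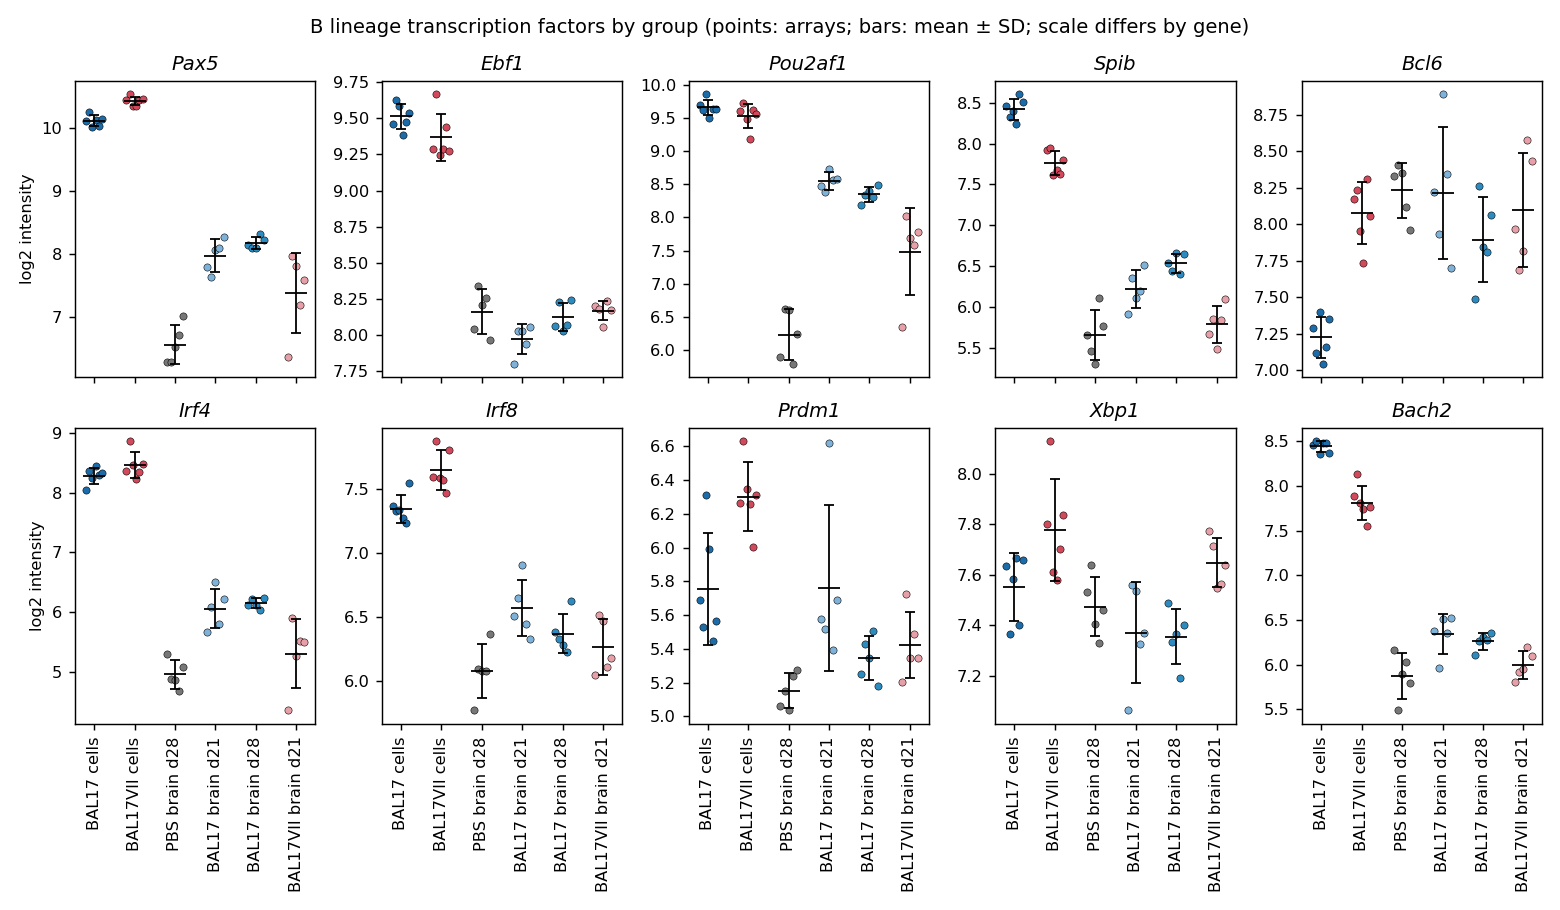
Log2 intensity of each factor (vertical axis, with its own scale per gene) in the 6 groups (horizontal axis); points are arrays, long bars the mean and short bars the SD. Pou2af1 lay between 8.19 and 8.74 in all BAL17 brains and between 5.79 and 6.62 in PBS brains, while Bcl6 in PBS brains (7.96 to 8.41) lay above cultured BAL17 cells (7.04 to 7.40).

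Among the factors of B cell identity, Pax5 reached a lowest, median and highest value of 10.36, 10.45 and 10.54 in BAL17VII cells and 10.02, 10.13 and 10.26 in BAL17 cells. In brains it read 7.80, 7.63, 8.07, 8.10 and 8.28 at day 21 of BAL17, 8.15, 8.09, 8.09, 8.32 and 8.23 at day 28 of BAL17, and 6.28, 6.28, 6.51, 6.70 and 7.0 after PBS. The 5 BAL17VII brains read 6.35, 7.96, 7.80, 7.18 and 7.58. BAL17 brains of both days did not overlap PBS brains in Pax5, whereas the BAL17VII group did, through its replicate 1. Pax5 was below the array median in 4 of 5 PBS brains, a range in which residual background can shrink a difference.

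Pou2af1, the octamer coactivator, had lowest, median and highest values of 9.49, 9.64 and 9.85 in BAL17 cells and 9.18, 9.58 and 9.72 in BAL17VII cells. It read 8.47, 8.39, 8.74, 8.56 and 8.58 in BAL17 brains at day 21 and 8.19, 8.34, 8.40, 8.31 and 8.49 at day 28. In BAL17VII brains it read 6.35, 8.01, 7.69, 7.58 and 7.78, and in PBS brains 5.90, 6.62, 6.60, 5.79 and 6.24. The BAL17 brains of both days lay above every BAL17VII brain, and 4 of the 5 BAL17VII brains lay above every PBS brain.

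Ebf1, the early B cell factor, ranged from 9.25 to 9.66 in BAL17VII cells and from 9.39 to 9.63 in BAL17 cells. Its brain ranges were 7.80 to 8.06 at day 21 of BAL17, 8.03 to 8.24 at day 28, 8.06 to 8.24 in BAL17VII brains and 7.97 to 8.34 after PBS. All 20 brains thus lay below all 12 line arrays, and no rise in implanted brains passed the test. The brain level of Ebf1 was above the array median in all 20 brains, PBS brains included.

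Spib, the ETS-family factor, ranged from 8.24 to 8.60 in BAL17 cells and from 7.62 to 7.95 in BAL17VII cells, without overlap. It read 6.53, 6.44, 6.65, 6.40 and 6.65 in BAL17 brains at day 28, above PBS brains at 5.66, 5.45, 5.30, 6.10 and 5.77. At day 21 it read 5.91, 6.35, 6.11, 6.19 and 6.52 in BAL17 brains and 5.67, 5.85, 5.48, 5.84 and 6.09 in BAL17VII brains. All 20 brain values of Spib were below the median of their array.

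The repressors Bach2 and Bcl6 had unlike patterns. Bach2 ranged from 8.36 to 8.50 in BAL17 cells and from 7.55 to 8.13 in BAL17VII cells, again without overlap. In brains it ranged from 5.96 to 6.52 (BAL17, day 21), 6.10 to 6.36 (BAL17, day 28), 5.80 to 6.20 (BAL17VII) and 5.49 to 6.17 (PBS), all below the array median.

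Bcl6 had lowest, median and highest values of 7.04, 7.22 and 7.40 in BAL17 cells and 7.73, 8.11 and 8.31 in BAL17VII cells. It read 8.33, 8.41, 8.35, 8.12 and 7.96 in PBS brains. The BAL17 brains read 8.22, 7.93, 8.89, 8.34 and 7.70 at day 21 and 7.48, 8.26, 7.84, 7.81 and 8.07 at day 28, and the BAL17VII brains ranged from 7.69 to 8.58. Brain without lymphoma therefore read higher for Bcl6 than every BAL17 line array, and the brain groups overlapped.

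The interferon regulatory factors followed the lines. Irf4 ranged from 8.22 to 8.86 in BAL17VII cells and from 8.04 to 8.44 in BAL17 cells. It read 5.67, 6.09, 6.50, 5.81 and 6.22 in BAL17 brains at day 21 and 6.12, 6.22, 6.12, 6.03 and 6.24 at day 28, against 5.30, 4.88, 4.87, 4.68 and 5.08 in PBS brains. The BAL17VII brains read 4.36, 5.90, 5.26, 5.52 and 5.50, so that replicate 1 lay below every PBS brain. Irf8 ranged from 7.47 to 7.88 in BAL17VII cells and from 7.23 to 7.55 in BAL17 cells. Its brain ranges were 6.33 to 6.90 (BAL17, day 21), 6.23 to 6.62 (BAL17, day 28), 6.04 to 6.52 (BAL17VII) and 5.77 to 6.37 (PBS), and neighbouring brain groups overlapped.

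The plasma cell factors were the least separated. Prdm1 had lowest, median and highest values of 6.0, 6.29 and 6.63 in BAL17VII cells and 5.45, 5.63 and 6.31 in BAL17 cells, below the array median in 11 of the 12 line arrays. It read 5.58, 5.52, 6.62, 5.39 and 5.69 in BAL17 brains at day 21, with replicate 3 as high as the cultured cells. Its other brain ranges were 5.18 to 5.51 (BAL17, day 28), 5.21 to 5.72 (BAL17VII) and 5.04 to 5.27 (PBS). Xbp1 ranged from 7.58 to 8.13 in BAL17VII cells, from 7.36 to 7.67 in BAL17 cells, and from 7.06 to 7.77 over all 20 brains.

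In culture, the derived line was set against its parent. BAL17VII cells carried more Bcl6, Prdm1, Pax5 and Irf8 and less Spib and Bach2 than BAL17 cells. Bcl6 was 1.80-fold higher (0.85 ± 0.10, adjusted p = 2.23e-05), and Prdm1 was 1.46-fold higher (0.55 ± 0.14, adjusted p = 0.0146). Prdm1 was below the array median in 5 of 6 BAL17VII and 6 of 6 BAL17 arrays, and the lines overlapped. Spib was lower at a ratio of 0.63 (-0.66 ± 0.08, adjusted p = 4.97e-05) and Bach2 at 0.65 (-0.63 ± 0.08, adjusted p = 8.69e-05). Pax5 (0.32 ± 0.06, adjusted p = 0.00247) and Irf8 (0.30 ± 0.08, adjusted p = 0.0191) differed by less. Thus 6 of the 10 factors passed the threshold, adjusted p under 0.05, where 15.4% of all genes did; 4 were higher and 2 lower, against 8.48% and 6.93% of all genes. The 2 lines did not overlap in Pax5, Bcl6, Spib and Bach2, a pattern that held for 10.7% of all genes. The other 4 factors did not pass: Ebf1 at -0.15 ± 0.08 (adjusted p = 0.278), Pou2af1 at -0.13 ± 0.09 (0.413), Irf4 at 0.17 ± 0.10 (0.31) and Xbp1 at 0.23 ± 0.10 (0.143). BAL17VII replicate 2 was the highest of its group for 9 of the 10 factors, and without it the same 6 factors passed. The Pax5 call was lost when all 32 arrays shared the estimate of the spread (adjusted p = 0.205).

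Other genes of the network also differed between the cultured lines. Of 26 other B lineage factors, 8 were higher and 4 lower in BAL17VII cells. Spi1, which encodes the ETS factor PU.1, was higher by 1.5 ± 0.10 (adjusted p = 4.26e-08), Bcl11a, a zinc finger factor of B cell development, by 0.99 ± 0.07 (1.72e-07) and Lmo2, an adaptor of haematopoietic transcription complexes, by 1.37 ± 0.17 (4.38e-05). Of 6 other interferon regulatory factors, 3 were higher and none lower: Irf9, part of the complex that carries type I interferon signals, by 1.30 ± 0.08 (1.6e-08), Irf7, the amplifier of interferon genes, by 1.15 ± 0.10 (1.47e-06), and Irf1 by 0.58 ± 0.08 (0.000149). The median of the 10 factors was 0.20, and that of all genes was -0.01. Among 7 measured genes activated by Pax5, 1 was higher and 1 lower: Cd72, an inhibitory B cell receptor, rose by 0.30 ± 0.08 (0.0163) and Cd55, a complement regulator, fell by 0.96 on the log2 scale (SE 0.12, adjusted p = 3.09e-05), while Pax5 itself was higher. Of 12 genes of the Xbp1-driven secretory pathway, 2 were higher and 2 lower, with Pdia6 at -0.34 ± 0.07 (0.00492), Herpud1 at 0.37 ± 0.08 (0.00516) and Edem1 at -0.33 ± 0.08 (0.0124). These lists were chosen with results of these data known.

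Implanted brains were then set against PBS brains to see which factors could be read in whole brain tissue. All such comparisons share the same 5 PBS brains. At day 21 of BAL17, 7 of the 10 factors rose, where 11% of all genes were called higher and 18.8% lower. Pou2af1 rose most, 4.97-fold (2.31 ± 0.21, adjusted p = 6.52e-08), then Pax5 2.67-fold (1.42 ± 0.21, adjusted p = 2.38e-05) and Irf4 2.14-fold (1.10 ± 0.20, adjusted p = 0.000187). Prdm1 (0.61 ± 0.16, adjusted p = 0.00516), Spib (0.56 ± 0.13, adjusted p = 0.00283), Irf8 (0.49 ± 0.12, adjusted p = 0.00343) and Bach2 (0.47 ± 0.12, adjusted p = 0.00398) rose by less. Ebf1 (-0.19 ± 0.08, adjusted p = 0.0758), Bcl6 (-0.02 ± 0.19, adjusted p = 0.957) and Xbp1 (-0.10 ± 0.09, adjusted p = 0.418) did not pass. Pax5, Pou2af1, Irf4 and Prdm1 did not overlap PBS brains, as was so in the upward direction for 7.01% of all genes. In whole tissue, the number of cells of a type and the RNA per cell cannot be told apart.

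Prdm1 at day 21 leaned on a single brain. With replicate 3 left out its difference was 0.39 (adjusted p = 0.00551), against 0.61 with it, and the same 7 factors passed. The mean of the 8 listed plasma cell genes was 7.16 in the same brain, 6.20 to 6.44 in the other 4 brains and 5.54 to 5.74 after PBS. In cultured BAL17 cells this mean was 7.01 to 7.19. In replicate 3 it leaned on Jchain, which read 9.40 against 3.79 to 5.52 in the other 4 and 3.93 to 4.51 in BAL17 cells. Slamf7, also of the 8, read 8.95 against 7.34 to 8.05, with 9.34 to 9.50 in BAL17 cells. Jchain and Slamf7 were chosen after their values were seen. Against PBS, 3 of the 8 plasma cell genes rose in this group and none fell, where 11% of all genes rose. Their part in the Prdm1 result was not tested.

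Irf8 is a gene of myeloid cells as well, and markers of those cells moved in the same group. Of 11 measured microglia markers, none rose and 9 fell at day 21 of BAL17, with list means of 6.61 to 6.97 against 7.13 to 7.41 after PBS. Of 12 measured monocyte and macrophage markers, 6 rose and none fell, with list means of 6.02 to 6.26 against 5.46 to 5.63. The part of either cell type in the Irf8 difference was not tested.

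At day 28 of BAL17, 5 of the 10 factors rose against PBS, where 6.56% of all genes were called higher. Pou2af1 was 4.34-fold higher (2.12 ± 0.21, adjusted p = 4.56e-07), Pax5 3.08-fold (1.62 ± 0.21, adjusted p = 9.78e-06), Irf4 2.28-fold (1.19 ± 0.20, adjusted p = 0.00019) and Spib 1.84-fold (0.88 ± 0.13, adjusted p = 7.43e-05). None of these 4 overlapped PBS brains, as was so in that direction for 5.66% of all genes. Bach2 rose by 0.39 ± 0.12 (adjusted p = 0.023). Its call was lost without BAL17 day 28 replicate 3 or 5 or PBS replicate 2 or 5, at adjusted p of 0.0524, 0.0553, 0.0848 and 0.0519. Irf8 (0.29 ± 0.12, adjusted p = 0.0969), Prdm1 (0.19 ± 0.16, adjusted p = 0.426), Xbp1 (-0.12 ± 0.09, adjusted p = 0.392), Ebf1 (-0.04 ± 0.08, adjusted p = 0.789) and Bcl6 (-0.34 ± 0.19, adjusted p = 0.229) did not pass.

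BAL17VII brains at day 21 showed a rise of Pou2af1, 2.38-fold (1.25 ± 0.21, adjusted p = 0.00141), and of Pax5, 1.77-fold (0.82 ± 0.21, adjusted p = 0.0342). These were 2 of the 10 factors, where 2.05% of all genes were called higher. Both overlapped PBS brains, through replicate 1. The other 8 did not pass, with Irf4 at 0.35 ± 0.20 (adjusted p = 0.412), Prdm1 at 0.27 ± 0.16 (0.434) and Irf8 at 0.19 ± 0.12 (0.491) the largest of them. Without replicate 1, Pou2af1 stood at 1.53 (adjusted p = 6.99e-08), Pax5 at 1.08 (6.5e-05) and Irf4 at 0.59 (0.024), so 3 factors passed. The Pax5 call was lost without BAL17VII replicate 2, 3 or 5 or PBS replicate 1, 2, 3 or 4, at adjusted p of 0.0547 to 0.145.

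**Figure D2:**
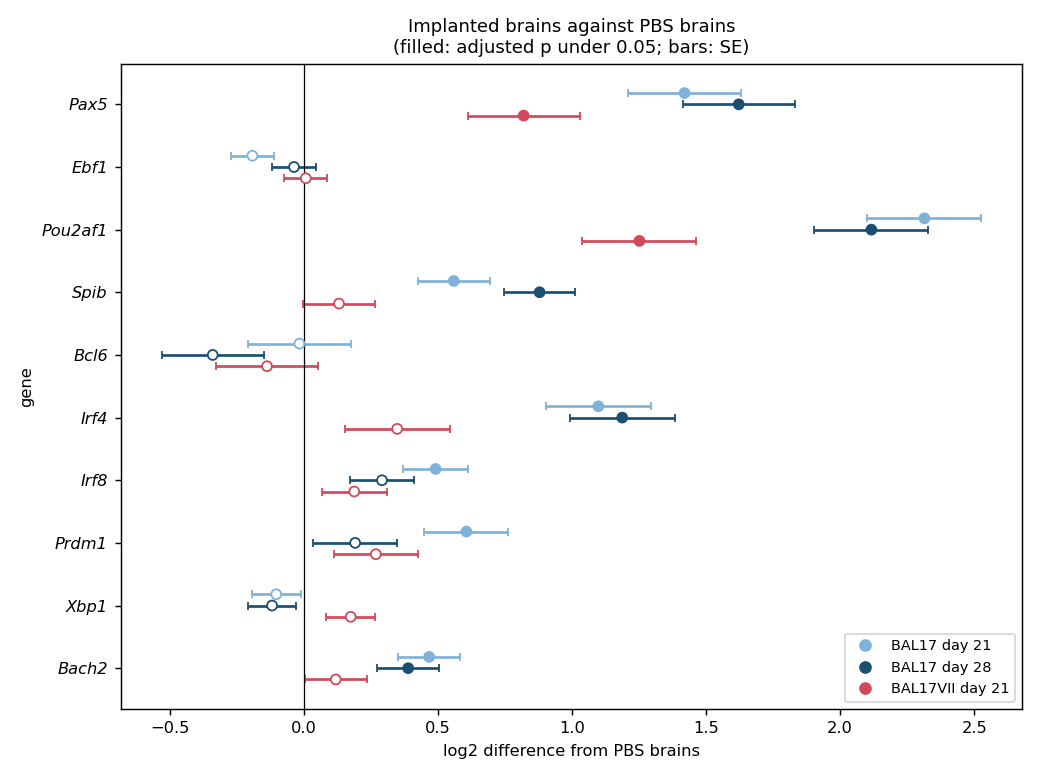
Log2 difference from the 5 PBS brains (horizontal axis) for each factor (vertical axis) in the 3 implanted groups of 5 brains; bars are limma's SE, and filled points have an adjusted p under 0.05. Pou2af1 lay at 2.31, 2.12 and 1.25 in BAL17 day 21, BAL17 day 28 and BAL17VII day 21 brains, and none of the 3 points of Ebf1, Bcl6 or Xbp1 was filled.

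Some genes around these factors rose in the same brains, and others fell. Of all genes, 11% were called higher at day 21 of BAL17, 6.56% at day 28 and 2.05% in BAL17VII brains. At day 21 of BAL17, 18.8% of all genes were called lower. Of 26 other B lineage factors, 11 rose and 5 fell at day 21 of BAL17, 10 rose and 3 fell at day 28, and 4 rose and none fell in BAL17VII brains. Ikzf1 and Ikzf3, which encode the lymphoid zinc finger factors Ikaros and Aiolos, rose by 1.95 ± 0.19 (adjusted p = 9.58e-08) and 2.64 ± 0.29 (7.05e-07) at day 21 of BAL17 and by 1.83 ± 0.19 (5.22e-07) and 2.51 ± 0.29 (2.42e-06) at day 28. In BAL17VII brains they rose by 1.23 ± 0.19 (0.000608) and 1.56 ± 0.29 (0.00328). Of 7 measured genes activated by Pax5, 5, 4 and 2 rose in the 3 groups in that order, and none fell. Cd72 rose by 1.69 ± 0.21 (3.12e-06), 1.88 ± 0.21 (1.64e-06) and 1.03 ± 0.21 (0.00677), and Blnk, an adaptor of B cell receptor signalling, by 1.51 ± 0.19 (3.14e-06), 1.32 ± 0.19 (3.33e-05) and 0.79 ± 0.19 (0.0223).

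Xbp1 did not pass against PBS in any implanted group, while single genes of its secretory pathway did. Edem1, which helps degrade misfolded glycoproteins, rose by 0.63 ± 0.09 (1.31e-05) at day 21 of BAL17 and by 0.37 ± 0.09 (0.00516) at day 28. Of the 12 secretory genes, 4 rose and 2 fell at day 21 of BAL17, 3 rose and 1 fell at day 28, and 1 rose in BAL17VII brains, namely Sdf2l1 by 0.43 ± 0.10 (0.0263). Of the 6 other interferon regulatory factors, 4, 2 and 1 rose in the 3 groups, with Irf2 called in each, at 0.43 ± 0.08 (0.000189), 0.51 ± 0.08 (7.84e-05) and 0.39 ± 0.08 (0.00543).

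To put the rise of different factors on a common footing, the intensity of a brain above the PBS mean was expressed as a percent of the excess of its own cultured line over the PBS mean, on the linear scale. The measure was computed where the line mean was at least 2 times the PBS mean, which left out Bcl6 and Xbp1, and Prdm1 for BAL17. It is a description of intensities and not a share of cells, since probe background and the normalization affect it. Pou2af1 reached 40.7% ± 4.7 (SD, n = 5) of the line excess at day 21 of BAL17, 34.1% ± 3.4 at day 28 and 17.2% in BAL17VII brains, where single brains ran from 0.645% to 27.2%. Pax5 reached 15.5% ± 4.3, 19.0% ± 2.0 and 6.34% ± 5.1. The ranges of the 2 genes did not meet in BAL17 brains: Pou2af1 ran from 35.2% to 47.7% and Pax5 from 9.996% to 21.0% at day 21. The 2 genes were not tested against each other.

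Irf8 had the widest spread, at 29.1% ± 16.0 in BAL17 day 21 brains, from 13% to 54.2%. Irf4 stood at 13% ± 5.6, Spib at 8.11% ± 4.1 and Bach2 at 7.78% ± 4.1 in the same brains. Ebf1 stood at -8.24% ± 4.0, although its mean intensity was 2.54 times as high in BAL17 cells (731) as in PBS brains (288). Spib stood at 8.11% at day 21 and 14.3% ± 2.6 at day 28, and the ranges, 3.01% to 13.8% and 11.4% to 16.9%, overlapped. The median over the 7 eligible factors of BAL17 was 13% at day 21 and 14.3% at day 28. In BAL17VII brains it was 4.79% over 8 factors, since Prdm1 (17.1%) was eligible only there. For the 7 B cell markers and Pax5 targets measured this way in all 3 groups the median was 23.2%, 22.4% and 7.96%.

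**Figure D3:**
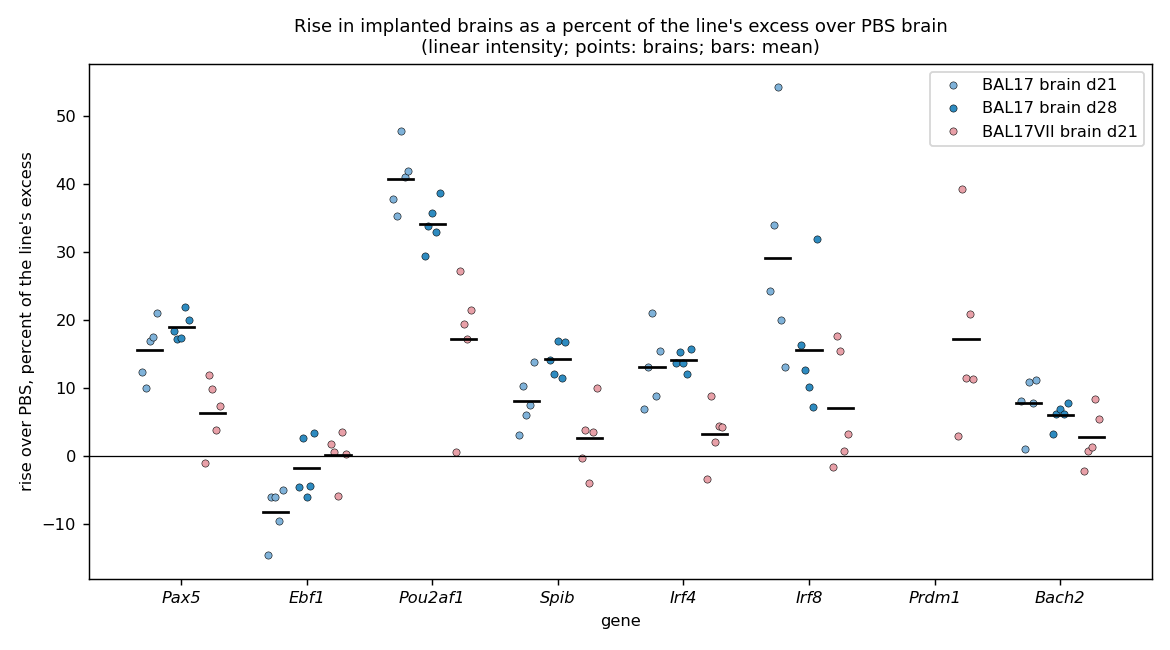
Rise over the PBS mean as a percent of the excess of the brain's own cultured line (vertical axis, linear intensity) for each factor (horizontal axis); points are brains, bars the mean of 5. Pou2af1 had means of 40.7%, 34.1% and 17.2%, and Ebf1 lay near or below 0 in the 3 groups.

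BAL17VII brains were set directly against BAL17 brains of the same day. Pou2af1 was lower in BAL17VII brains, at a ratio of 0.48 (-1.06 ± 0.21, adjusted p = 0.00233), and the groups did not overlap, which in that direction held for 2.89% of all genes. Irf4 was lower at 0.59 (-0.75 ± 0.20, adjusted p = 0.0135), Spib at 0.74 (-0.43 ± 0.13, adjusted p = 0.0358) and Bach2 at 0.79 (-0.35 ± 0.12, adjusted p = 0.0498). Xbp1 was 1.21-fold higher (0.28 ± 0.09, adjusted p = 0.0452). Thus 4 factors were lower and 1 higher, where 4.55% of all genes were called lower and 8.94% higher. Pax5 at -0.60 ± 0.21 (adjusted p = 0.0593), Irf8 at -0.30 ± 0.12 (0.0972), Prdm1 at -0.34 ± 0.16 (0.158), Ebf1 at 0.20 ± 0.08 (0.104) and Bcl6 at -0.12 ± 0.19 (0.722) did not pass. Without BAL17VII replicate 1, Pax5 stood at -0.34 (adjusted p = 0.193), and without BAL17 day 21 replicate 3, Prdm1 stood at -0.12 (0.442). Pax5 passed with the replicate number as a block (adjusted p = 0.0343), with array weights (0.0452) and with the filter on low values (0.0421). B cell markers moved with these differences: their mean was 5.78 to 7.38 in BAL17VII brains and 7.13 to 7.86 in BAL17 brains, and 2 of the 7 were called lower.

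Pou2af1 and Irf4 kept their calls with each of the 10 brains left out in turn. Without BAL17VII replicate 1 they stood at -0.78 (adjusted p = 0.00155) and -0.51 (0.034). Irf4 lost its call when the 2 groups were fitted alone (adjusted p = 0.0631), as did Spib (0.0577), Xbp1 (0.111) and Bach2 (0.082). Among the omissions, Spib kept its call in 5 of the 10 omissions, Xbp1 in 3 and Bach2 in 2, with the highest adjusted p at 0.113, 0.151 and 0.142. Without BAL17VII replicate 1 all 3 calls were lost, at -0.40, 0.25 and -0.30 (adjusted p = 0.0921, 0.128 and 0.142). Without BAL17 day 21 replicate 3 that of Bach2 was lost, at -0.31 (0.108). Quantile normalization ended the calls of Spib (adjusted p = 0.0942) and Bach2 (0.0776), and median centring (0.0633) and trended moderation (0.0505) also that of Bach2.

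Whether the difference between the lines had the same size in brain as in culture was tested in a fit over all 32 arrays. This fit shares 1 estimate of the spread per gene between cells and brains, although their spread was unlike. The SD was 0.07 in BAL17VII cells and 0.64 in BAL17VII brains for Pax5, and 0.18 and 0.65 for Pou2af1. The line difference was called as unlike for 7 of the 10 factors, where 15.6% of all genes were called, 8.43% as higher and 7.13% as lower in brain. The line difference was lower in brain than in culture for Bcl6 (-0.97 ± 0.23, adjusted p = 0.0032), Pou2af1 (-0.93 ± 0.25, adjusted p = 0.0088), Irf4 (-0.92 ± 0.24, adjusted p = 0.00623), Pax5 (-0.92 ± 0.24, adjusted p = 0.00704), Prdm1 (-0.88 ± 0.22, adjusted p = 0.00463) and Irf8 (-0.61 ± 0.15, adjusted p = 0.00469). Without BAL17VII brain 1 the values of Pax5, Pou2af1 and Irf4 were -0.66, -0.65 and -0.69, and all 3 still passed (adjusted p = 0.0099, 0.00982 and 0.0112). Pax5, Irf8 and Prdm1 were higher in BAL17VII than in BAL17 in culture and had estimates below 0 in brain, where none of the 3 passed. For Ebf1 the line difference was higher in brain (0.34 ± 0.11, adjusted p = 0.0311), a call that was lost in 7 of 22 omissions of an array, with adjusted p up to 0.0735. Those arrays were BAL17VII cells replicates 3 and 6, BAL17 cells replicate 2, BAL17 day 21 brains 1 and 4 and BAL17VII brains 1 and 4. Without BAL17VII brain 1 Ebf1 stood at 0.336 (adjusted p = 0.0538), against 0.344 with it. Pericyte markers moved beside Ebf1: of 7, 5 fell and none rose at day 21 of BAL17 against PBS, where 18.8% of all genes fell. In BAL17VII against BAL17 brains 2 were higher and none lower, where 8.94% of all genes were higher. The pericyte list means were 7.07 to 7.17 in BAL17 day 21 brains, 7.26 to 7.42 in BAL17VII brains and 7.29 to 7.49 after PBS. Markers of most other brain cell types fell too. At day 21 of BAL17 against PBS, 9 of 11 of microglia, 4 of 5 of astrocytes and 3 of 4 of oligodendrocytes fell. Of neurons 3 of 5 fell, of endothelium 2 of 4 and of striatal neurons none of 6. The part of these cell types in the Ebf1 values was not tested. Spib (0.23 ± 0.17, adjusted p = 0.397), Bach2 (0.28 ± 0.15, 0.215) and Xbp1 (0.05 ± 0.13, 0.843) did not pass, and Spib and Bach2 were lower in BAL17VII in both settings. Lymphoma RNA is only part of the RNA of a whole brain, so the amount of lymphoma and the level per lymphoma cell cannot be told apart in this contrast. Bcl6 had means of 8.23 in PBS brains, 8.08 in BAL17VII cells and 7.23 in BAL17 cells. The brain's own Bcl6 can hide a line difference, so the contrast cannot show whether that of the lymphoma cells changed.

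**Figure D4:**
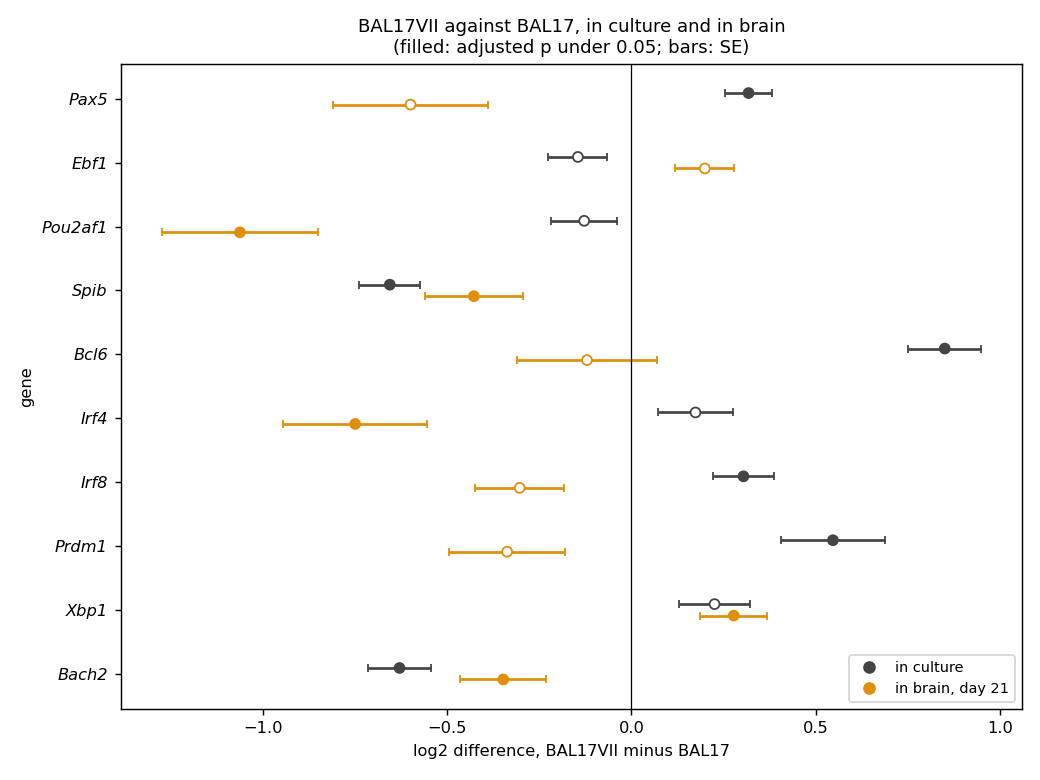
Log2 difference of BAL17VII minus BAL17 (horizontal axis) for each factor (vertical axis), in culture (6 arrays against 6) and in day 21 brains (5 against 5); bars are limma's SE, and filled points have an adjusted p under 0.05. Spib and Bach2 were filled and below 0 in both settings, and Bcl6 stood at 0.85 in culture and -0.12 in brain.

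Between day 21 and day 28 of BAL17 no factor passed in limma, where 0.612% of all genes did. At an unadjusted p under 0.05 there were 2 of the 10, where 9.9% of all genes lay under it, and the count was also 0 with each of the other settings tried. The largest differences were those of Prdm1 (-0.41 ± 0.16, adjusted p = 0.305), Bcl6 (-0.32 ± 0.19, 0.637) and Spib (0.32 ± 0.13, 0.39). Without day 21 replicate 3, Prdm1 stood at -0.20 (adjusted p = 0.523). Pou2af1 (-0.20 ± 0.21, 0.845), Pax5 (0.20 ± 0.21, 0.839) and Irf4 (0.09 ± 0.20, 0.937) differed by no more than their SE.

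Genes with the pattern most like that of each factor were found by the root mean square difference of centred log2 values over all 32 arrays, among genes with a mean above the median. As a description, Pax5 was nearest to Nckap1l (0.20) and Ube2c (0.21), Pou2af1 to Bcl2 (0.23) and Cks1b (0.23), and Irf4 to Cdca2 (0.24) and Cdca8 (0.25). Spib was nearest to Mcm8 (0.25) and to Bach2 (0.25), itself 1 of the 10, and Bach2 to Nup205 (0.18) and 1700109H08Rik (0.20). Irf8 was nearest to Gars (0.17) and Vps4b (0.18), Xbp1 to Mlec (0.12) and Tpra1 (0.13), Ebf1 to Inppl1 (0.12) and Glb1 (0.13), Bcl6 to Slc25a12 (0.26) and Kat2b (0.27), and Prdm1 to Nfkbia (0.26) and Bmp2k (0.27). All of these genes share the 32 arrays and their contrast between cells and brain, so no p is given.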

How the data were processed

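RNA of 32 samples was hybridised to Affymetrix mouse gene arrays, 1 sample per array. The deposited values are intensities on a linear scale, from 2.72 to 17825, made by the authors with RMA; the submitters' processing notes name Affymetrix Expression Console as the program. No versions are given there, and it is not given in the sources used here whether lines and brains were normalized together. RMA corrects background, normalizes by quantiles and summarises probes, and gives no detection call, so a low value is no measured absence. The median intensity of an array lay between 81.7 and 93.0, and the number of arrays limits the precision.

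Of 35556 probe sets, 21789 carried 1 symbol in the probe table, 1621 several and 12146 none; 21698 matched the mouse gene table by Entrez identifier. Log2 was taken, and each of 19938 genes was represented by its single-symbol probe set with the highest mean. Groups came from the labels. Differences were tested two-sided with limma 3.58.1 in R 4.3.3 (group means, empirical Bayes, Benjamini-Hochberg over all genes, call at adjusted p under 0.05), with no filter on low values so that all 10 factors were tested. The lines were fitted on their 12 arrays, the brains on 20 in a single fit, and the contrast between culture and brain on all 32. The tests were tried on simulated data. Promoter windows were taken from RefSeq tables of GRCm38.p6.

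The 10 factors, the gene lists and the motifs were chosen with earlier results of these data known. Named are all 10 factors, up to 3 genes of a list with the smallest adjusted p in a comparison, and the 2 genes most like each factor; others are marked as chosen after their values were seen. Genes of the lists with no single-symbol probe set were not analysed here. Alternatives were array weights, quantile normalization, median centring, averaging the probe sets of a gene, a filter on low values, robust or trended moderation, a block for the replicate number, other arrays in the fit and leaving out each array. Correlations of same-numbered deviations from group means ran from -0.32, in BAL17 day 28 against day 21, to 0.48, in BAL17 day 21 against PBS. Between the cultured lines they ran from 0.005 to 0.18. Samples of unlike number were not correlated, so these values do not settle whether equal numbers pair the samples. Tables and figures used Python 3.11.15, pandas 2.3.3, numpy 2.4.6 and matplotlib 3.10.9.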

Additional observations from a re-analysis of the deposited data

Results flagged for a closer look

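Within groups of 5 or 6 arrays, 60 combinations of a factor and a group were searched for an array standing far from the rest of its group by Dixon's ratio of gap to range, and 2 were found; chance gives about 1 in 20. Pou2af1 in BAL17VII brain replicate 1 of day 21 was the lowest of its group at 6.35, against 7.58 to 8.01 in the other 4 and 5.79 to 6.62 in PBS brains. Prdm1 in BAL17 brain replicate 3 of day 21 was the highest of its group at 6.62, against 5.39 to 5.69 in the other 4.

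The line difference, BAL17VII minus BAL17, differed between brain and culture by limma's interaction test in 7 of the 10 factors. Of all genes, 15.6% were called by this test. The line difference was lower in brain for Pax5 (-0.92, adjusted p = 0.00704), Pou2af1 (-0.93, 0.0088), Bcl6 (-0.97, 0.0032), Irf4 (-0.92, 0.00623), Irf8 (-0.61, 0.00469) and Prdm1 (-0.88, 0.00463). It was higher in brain for Ebf1 (0.34, 0.0311), a call that held in 15 of 22 omissions of an array. For all 7, the amount of lymphoma and the level per lymphoma cell cannot be told apart. For Bcl6, PBS brains read as high as the lines, so a line difference of the lymphoma cells can be hidden in brain.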

How the results depend on the processing

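None of the alternatives turned the direction of a called factor: of 1565 values of the 10 factors, 49 lost and 11 gained a call, and 1505 kept their side of the threshold or, for percents of the line excess, moved by less than 1 SD. In the brain fits the filter on low values tested only 5 factors, Pax5, Ebf1, Pou2af1, Bcl6 and Xbp1. It called 3 at BAL17 day 21 against 7, of which Pax5 and Pou2af1 had been called before and Ebf1 was newly called as lower (-0.19, adjusted p = 0.0456). It called 2 at BAL17 day 28 against 5, Pax5 and Pou2af1, and 3 between the lines in brain against 5, where Pou2af1 and Xbp1 kept their calls and Pax5 gained one. For BAL17VII brains against PBS, robust moderation and a fit of the 2 groups alone each left 1 factor called; the latter gave 197 genes against 538. For the lines in brain, quantile normalization left 3 factors and the 2-group fit 1, with 1460 genes against 2691. For day 28 against day 21, quantile normalization gave 208 genes, the filter 186, array weights 468 and the 2-group fit 312, against 122; the cause was not tested.

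With single arrays left out, factors called ranged from 6 to 6 between cultured lines (genes 2682 to 2983), 7 to 8 at BAL17 day 21 (4831 to 6508), 1 to 3 for BAL17VII against PBS (229 to 1117), 4 to 5 at BAL17 day 28 (2497 to 3605), 2 to 5 between the lines in brain (1483 to 3767), 0 to 0 between days (6 to 174) and 6 to 7 for brain against culture (2475 to 3737). Arrays that moved the gene count by over 1.5 times were BAL17VII brains 2 (229), 3 (232) and 4 (1117) and PBS brains 1 (337) and 5 (342) for BAL17VII against PBS. Between the lines in brain they were BAL17 brains 4 (1716) and 5 (1702) and BAL17VII brain 1 (1483); 2 factors passed without each of these. Between days they were day 21 brains 1 (32), 4 (49) and 5 (46) and day 28 brains 1 (6), 3 (22), 4 (73) and 5 (70). The median percent of the line excess ranged over omitted PBS brains from 12.6 to 13.6 at BAL17 day 21, 13.9 to 15.5 at day 28 and 4.55 to 5.79 for BAL17VII. The replicate block gave 6 factors and 2898 genes between cultured lines, 7 and 6082, 2 and 658, and 5 and 3775 for the 3 implanted groups, 6 and 2920 between the lines in brain, 0 and 137 between days, and 7 and 3325 for brain against culture; apart from Pax5 between the lines in brain it changed no call of a factor. Whether equal numbers pair the samples was not settled. With 5 or 6 arrays a group and low signals for Spib, Bach2, Irf4, Irf8 and Prdm1 in brain, small differences may be missed.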

Other observations

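Other values of BAL17 brain replicate 3 of day 21, in which Prdm1 and Bcl6 were the highest of the group, are given here for genes chosen after their values were seen. Jchain, which joins polymeric immunoglobulin, read 9.40 there, 3.79 to 5.52 in the other 4 brains of the group and 3.63 to 4.51 in all 12 arrays of cultured cells. Rgs13, a regulator of G protein signalling of germinal centre B cells, read 10.46 against 8.06 to 9.06, with 11.30 to 11.47 in BAL17 cells. Gcsam, a germinal centre signalling adaptor, read 7.36 against 5.79 to 6.43, with 5.54 to 6.24 in BAL17 cells. Mybl1 read 8.63 against 7.36 to 7.62, with 8.83 to 9.16 in BAL17 cells. Slamf7, a surface receptor of plasma cells, read 8.95 against 7.34 to 8.05, with 9.34 to 9.50 in BAL17 cells. The cultured parent line thus read higher than this brain for Rgs13, Mybl1 and Slamf7, and lower for Jchain and Gcsam.

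Foxo1 and Bcl11a were the 2 of 26 other B lineage factors called between day 28 and day 21 of BAL17, where 0.612% of all genes were. They stood at -0.41 ± 0.09 (limma, adjusted p = 0.0306) and 0.41 ± 0.09 (0.0461). With single brains left out, the genes called in this comparison ranged from 6 to 174, against 122, and values of these 2 genes are not given for those fits. In BAL17VII against BAL17 brains of day 21, 4 of the 10 factors were called lower and 1 higher. Of all genes, 4.55% were called lower and 8.94% higher. Some markers of several brain cell types were called higher there. These were 8 of 11 microglia markers (median difference 0.52), 4 of 5 of astrocytes (0.39), 3 of 4 of oligodendrocytes (0.52), 2 of 5 of neurons (0.11), 2 of 7 of pericytes (0.15) and 1 of 4 of endothelium (0.20). None of the 6 striatal markers was called in that comparison. At day 28 of BAL17, all 6 were lower than in PBS brains (median difference -1.30), and 4 were lower than at day 21 (-1.07).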
